A study of Homo sapiens with 2 samples.

Results

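MYC and PVT1 are neighbouring genes on the long arm of chromosome 8, and their locus was described in the chromatin interactions of KYSE180, an established cell line of esophageal squamous cell carcinoma (ESCC). The interactions were captured by H3K27ac HiChIP, which joins DNA fragments that lie close together in the nucleus, enriches those that carry histone H3 acetylated at lysine 27, a mark of active promoters and enhancers, and reads both ends. All cells of the series had been transfected with a non-targeting siRNA, so there is 1 condition, 1 cell line and no treated group. The 2 libraries, labelled as replicates 1 and 2, were deposited as 1 list of loops, and no value below has a replicate spread or a test across samples. Intervals are 95% intervals (exact Poisson for counts, Wilson for shares) and cover counting error only. The study's methods describe the called loops as active loops associated with p63, a transcription factor of squamous epithelium, and do not state which peaks were given to the caller. The list may therefore hold a selection of the H3K27ac contacts, and every count, density and 0 below refers to loops in this list. It gives pairs of 2 kb bins (anchors) on hg19 and 2 unnamed columns of whole numbers, which were read as the contacts that join the pair and the coverage of its first bin. Members of the locus are the loops with at least 1 bin starting between 127800000 and 129300000 on chromosome 8, which were 234 loops of the 31950 in the list.

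MYC encodes a basic helix-loop-helix transcription factor that pairs with MAX and drives genes of growth, ribosome synthesis and the cell cycle. Its gene lies in a region poor in other protein-coding genes, where enhancers at long distances on both sides are known to act on MYC in different tissues and tumors. PVT1 is a long non-coding RNA gene that begins downstream of MYC on the same strand, hosts several microRNAs and holds enhancers within its body, and its promoter is known to compete with the MYC promoter for such enhancers in some cells. MYC lies at chr8:128748315-128753680 on the plus strand, and the 5′ end of PVT1 lies near position 128806779, also on the plus strand and 58.5 kb further downstream. In the RefSeq order of genes, the upstream neighbours include CASC11, POU5F1B, CASC8, CCAT1 and CASC19, but that annotation is on another build, so none of them was placed on the bins.

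The listed loops were dense around MYC and PVT1. The 234 loops (Poisson interval 205 to 266) carried 240 contacts, and they made up 20.8% of the 1124 loops of chromosome 8. Both bins lay inside the 1.5 Mb window in 211 loops, and 23 loops had their other bin outside. Of 1485 windows of the same length that tile the autosomes and chromosome X and hold a loop, 0.606% (9 windows) had as many loops. Windows had a median of 11 loops, and on chromosome 8 those that do not touch the locus reached 93 at most. The 9 windows as dense lay on chromosomes 3, 6, 9, 11, 14 and 19, with 4 of them on chromosome 11.

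**Figure D1:**
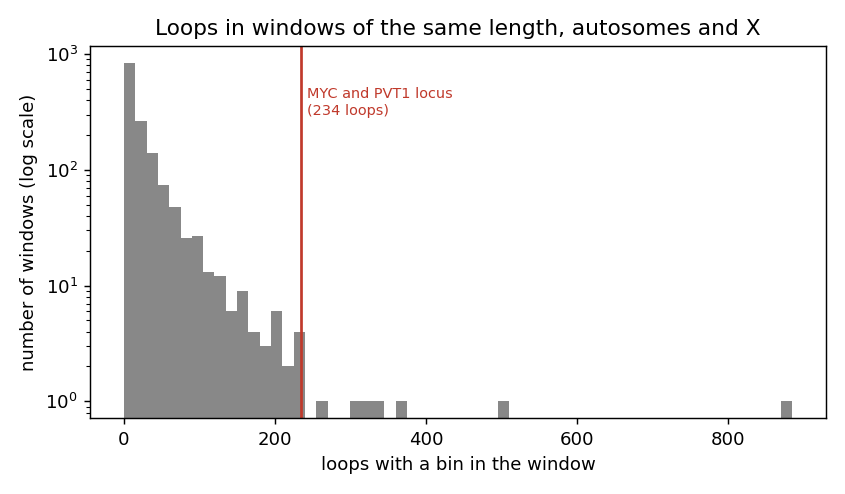
Histogram of the number of loops with a bin in each of 1485 windows of 1.5 Mb on the autosomes and X (number of windows on a log scale, windows without a loop left out), with the MYC and PVT1 locus as a red line. The locus, at 234 loops, lies far to the right of the median of 11, and the densest window holds 875.

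The MYC promoter held the most connected bin of the locus. Promoters were defined by a margin of 1 kb on either side of a 5′ end, which for MYC gave 2 bins, chr8:128746001-128748000 just upstream and chr8:128748001-128750000, which holds the 5′ end. The bin with the 5′ end had 16 loops, the most of the 132 anchors in the window, and its upstream neighbour had 10, which gave 26 promoter loops (Poisson interval 17 to 38.1) with 1 contact each. Only 0.0417% (24) of the 57529 windows of 2 adjacent bins with a loop had at least as many. These windows overlap each other, and the 24 include the MYC promoter itself. Loops left the promoter in both directions, 17 upstream (interval 9.9 to 27.2) and 9 downstream (4.12 to 17.1). The window holds more anchors upstream, and the promoter was joined to 17 of 79 upstream anchors (21.5%, Wilson interval 13.9 to 31.8%) and to 8 of 50 downstream anchors at least 10 kb away (16%, interval 8.34 to 28.5%).

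The 17 upstream loops of MYC had spans from 46 to 912 kb with a median of 306 kb. The nearest ended at chr8:128700001-128702000 and chr8:128698001-128700000, with spans of 46 and 50 kb. A second pair of partners lay at chr8:128672001-128674000 and chr8:128676001-128678000, 74 and 72 kb away. Both of these places were reached once from each MYC bin. Further upstream the promoter was joined to bins starting at 128598001 and 128582001, with spans of 150 and 164 kb. Next came the touching bins that start at 128490001 and 128492001, 258 and 256 kb away, which had 8 and 6 loops of their own and coverages of 97 and 66. The partners at 128440001 and 128396001 lay 306 and 352 kb away and had 3 and 2 loops.

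A group of 4 MYC partners followed between 440 and 492 kb upstream. The bin starting at 128306001 had 11 loops and a coverage of 97, the one at 128278001 had 9 loops and a coverage of 59, and the one at 128256001 had 10 loops and a coverage of 39. The other partner of the group, at 128264001, had only 3 loops and a coverage of 6. The 3 longest MYC loops ended at 127938001, 127898001 and 127836001, with spans of 810, 850 and 912 kb. These far partners had 2 or 3 loops each, where anchors had a median of 2.5 loops in the locus and 1 in the list. All 25 distinct partner bins of MYC had 2 or more loops, the loop to MYC included.

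Downstream, the 9 loops of MYC had spans from 68 to 294 kb with a median of 120 kb, and every one of them ended beyond the 5′ end of PVT1. The nearest partners started at 128814001 and 128822001, 68 and 74 kb away. Then 4 loops with spans of 114 to 122 kb ended between 128862001 and 128872000. This stretch holds the bin starting at 128866001, which had 11 loops and a coverage of 81. The 3 longest, of 290 to 294 kb, ended in the bins starting at 129038001 and 129042001. The bin at 129038001 was the only partner shared by the 2 MYC bins. RefSeq gives PVT1 a length of 307 kb on the newer build, and if this length is taken from the 5′ end used here, 9 of the 9 downstream loops ended within PVT1. Most anchors on this side lie there too. Of the 50 downstream anchors at least 10 kb away, 46 lie from the PVT1 5′ bin on and 40 within that length. A preference of MYC for PVT1 was not tested.

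**Figure D2:**
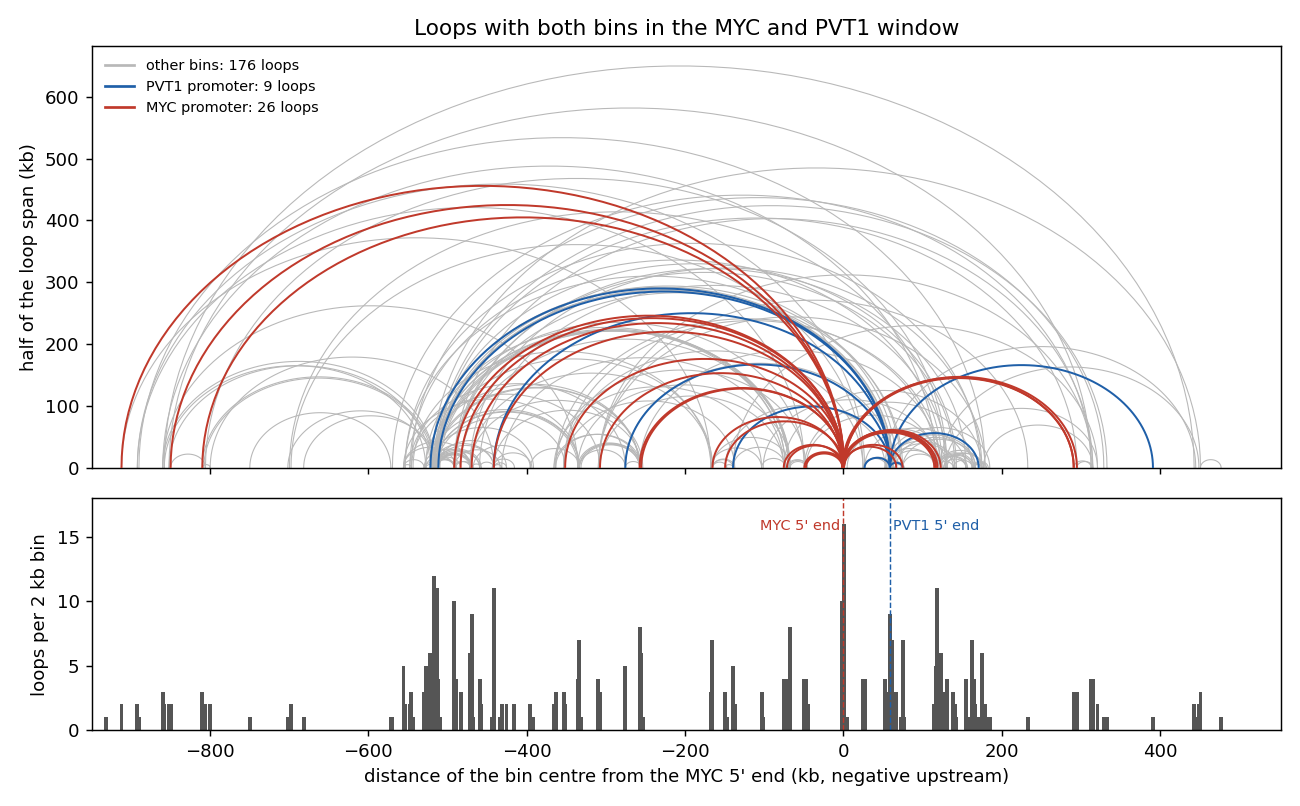
Arcs (top) join the 2 bins of each of the 211 loops that lie wholly in the window, with the 26 loops of the MYC promoter in red, the 9 of the PVT1 promoter in blue and others in grey, and bars (bottom) give the loops of each 2 kb bin. The horizontal axis is the distance from the MYC 5′ end in kb, and the tallest bar, 16 loops, stands at the MYC 5′ end.

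The nearest downstream partner of MYC was not its nearest downstream anchor. Between the promoter and its nearest downstream partner lay 8 anchors at 10 kb or more, the shortest span in the list. They had 1 to 9 loops each and 32 loops in all. Because these anchors were chosen as those before the nearest partner, 0 of these loops could go to the MYC promoter. On the upstream side, 1 anchor lay before the nearest partner. MYC was joined to only 16% of the 50 downstream anchors at least 10 kb away. Whether its near anchors were joined less often was not tested. Every promoter loop of MYC passed at least 1 other anchor, with a median of 17.5 and a maximum of 77. The bin with the 3′ end of MYC, starting at 128752001, had 1 loop, which ended 126 kb downstream in the bin starting at 128878001.

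The PVT1 promoter had 9 loops (Poisson interval 4.12 to 17.1), again with 1 contact each. Among the overlapping windows of 2 adjacent bins, its own included, 2.06% had at least as many. All 9 belonged to the bin chr8:128806001-128808000, which holds the 5′ end and had a coverage of 91, and the bin before it had 0 loops. The count rested on where the promoter ends, since the position of the 5′ end is approximate. The next bin downstream, starting at 128808001, had 7 loops and a coverage of 42, and a margin of 5 kb gave 26 loops in place of 9. In the whole run of touching anchors from 128806001 to 128816000 there were 23.

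Upstream, PVT1 had 6 loops with spans from 32 to 580 kb. The nearest partner, at 128774001, lies between the 2 genes. Those at 128608001 and 128472001 lay 198 and 334 kb away, with 5 loops each. The loop of 500 kb ended in the bin starting at 128306001, a hub that was also a partner of MYC. The loops of 570 and 580 kb ended at 128236001 and 128226001, in a block of anchors that had no loop to the MYC promoter. The 3 downstream loops of PVT1 had spans of 16, 112 and 332 kb, and their partners had 7, 1 and 1 loops.

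No listed loop joined the promoters of MYC and PVT1 to each other (Poisson interval 0 to 3.69), and the 58.5 kb between the 5′ ends are above the shortest span listed. It was 0 also with the promoters widened to 5 kb, and 1 with the runs of touching anchors at both 5′ ends, through the MYC loop that ended at 128814001. The promoters had 2 partner bins in common, the hub at 128306001 upstream and the bin at 128822001 within PVT1. These are 8.0% of the 25 distinct partners of MYC and 22.2% of the 9 of PVT1. Of the upstream anchors, PVT1 was joined to 6 of 84 (7.14%, Wilson interval 3.31 to 14.7%). The share of MYC rests on 2 bins with loops where PVT1 has 1, and the difference was not tested.

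**Figure D3:**
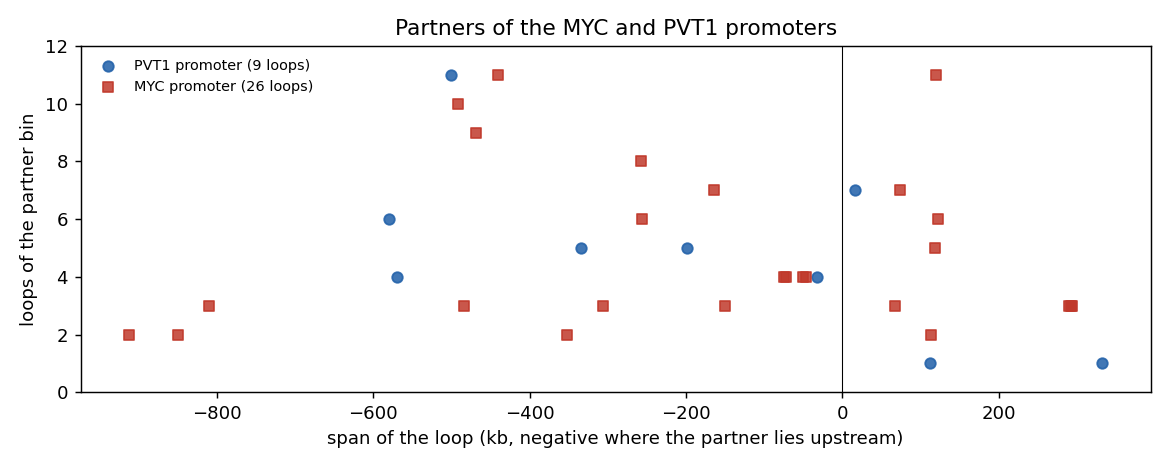
Each point is 1 loop of the MYC promoter (26 red squares) or the PVT1 promoter (9 blue circles), with its span in kb on the horizontal axis (negative where the partner lies upstream) and the loops of the partner bin on the vertical axis. Upstream partners of both promoters reach beyond 440 kb, and partners with 9 or more loops stand between 440 and 500 kb upstream, with 1 more 120 kb downstream of MYC.

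Anchors of the locus were shared by more loops than elsewhere. Of the 132 anchors, 94 had 2 or more loops (71.2%, Wilson interval 63 to 78.2%), against 40.8% of all 34902 anchors. Anchors with 6 or more loops were 16.7% (interval 11.3 to 23.9%) in the locus and 3.05% (2.87 to 3.23%) in the list. The mean was 3.37 loops per anchor against 1.83. Apart from the promoters, the 10 most used anchors were 5 bins between 128230001 and 128280000, the bin at 128306001 and the bin at 128866001 within PVT1. The most used of them started at 128230001 and had 12 loops, 9 of which led downstream. The bins at 128234001 and 128232001 beside it had 11 and 10.

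When anchors with gaps of at most 10 kb were merged, a width chosen after the values were seen, the locus fell into 34 blocks. The most connected block upstream lay at chr8:128218001-128240000, about 519 kb from the MYC 5′ end, and had 53 loops from 9 anchors. Of these loops, 43 led towards MYC. Of the 43, 14 ended in the next block, chr8:128256001-128292000, and 10 ended beyond the MYC promoter, from the bin with the PVT1 5′ end on. The block 519 kb upstream had 6 loops to the block chr8:128672001-128682000 near MYC. It had 0 loops to the 2 bins of the MYC promoter, 508 to 530 kb away (Poisson interval 0 to 3.69), and 2 to the bin with the PVT1 5′ end (0.242 to 7.22). The whole block with the PVT1 5′ end, which has 10 anchors, received 6 (2.2 to 13.1). These counts rest on unequal numbers of bins, and their difference was not tested. The next block, with 36 loops, had 3 to the MYC promoter (interval 0.619 to 8.77) and 1 to the block with the PVT1 5′ end.

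The block with the most loops in total, chr8:128862001-128934000, lay downstream of the PVT1 5′ end and had 58 loops, 15 of them within the block. It is 72 kb long with 24 anchors, where the block 519 kb upstream is 22 kb long and had 53 loops from 9 anchors. The downstream block had 10 loops to the block with the PVT1 5′ end, and 4 to the MYC promoter. The block at chr8:129038001-129044000 had 6 loops from 2 anchors, of which 3 went to the MYC promoter and 0 to the block with the PVT1 5′ end. Of the 24 upstream blocks, 12 were joined to the MYC promoter, 4 to the PVT1 promoter and 2 to both. The whole block with the PVT1 5′ end was joined to 6 of them. The MYC promoter has 2 bins with loops and the PVT1 promoter 1, and the difference was not tested.

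**Figure D4:**
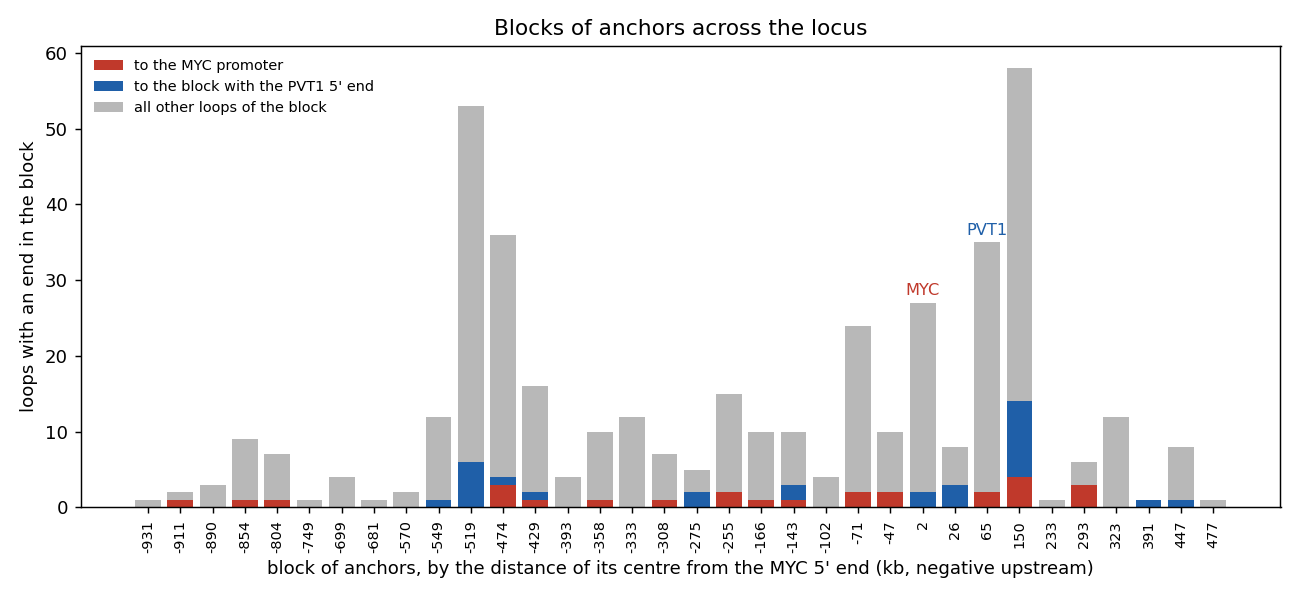
Bars give the loops with an end in each of the 34 blocks of anchors, ordered by the distance of the block from the MYC 5′ end in kb, with loops to the MYC promoter in red and loops to the block with the PVT1 5′ end in blue (not split off for the block's own loops). The tallest bars are the block 519 kb upstream (53 loops, 0 of them red) and the one 150 kb downstream (58 loops).

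Loops within the upstream region were the largest class. They joined bins upstream of MYC to each other in 97 of the 234 loops (41.5%). The window reaches 948 kb upstream of MYC and 552 kb downstream, and 79 of its 132 anchors lie upstream. The classes therefore differ in their number of bins, and their shares were not adjusted for this. A further 37 loops (15.8%) ran from upstream of MYC to bins beyond the PVT1 promoter, passing over MYC and the 5′ end of PVT1, and 29 (12.4%) stayed beyond the PVT1 promoter. In all, 55 loops (23.5%) passed over the MYC promoter without ending in it, with a median span of 644 kb. The 26 loops that ended there belong to 2 bins, whereas passing loops can come from all bins on either side. The 2 counts are thus not alike, and passing loops were not counted at other sites. Bins between the MYC and PVT1 promoters numbered 5 and gave 16 loop ends.

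The spans of the locus were longer than those of the list at the median and both quartiles. The median was 195 kb (interquartile range 48.5 to 491 kb) against 120 kb (36 to 398 kb) in the list and 111 kb in the rest of chromosome 8. With both bins in the window the locus median was 162 kb, a limit that was not set on the list. Loops of 200 to 1000 kb were 41.0% of the locus (Wilson interval 34.9 to 47.4%) and 27.6% of the list (27.1 to 28.1%). Loops of 1 Mb or more were 8.55% (5.6 to 12.8%) against 11.7% (11.3 to 12%). Of the 20 such loops, 17 left the window. Upstream, 3 of the loops that left it began at 125382001 to 125386000, and they ended at the hub at 128306001 and at bins starting at 128808001 and 128910001, the latter 2 beyond the PVT1 5′ end. Downstream, 7 loops ended between 130898001 and 131208000, 2014 to 2960 kb away. Their inner ends lay both upstream of MYC and beyond the PVT1 promoter, and 0 of the loops that left the window ended in either promoter.

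Nearly all loops of the locus rested on 1 contact. Loops with 2 or more contacts were 6 of 234 (2.56%, Wilson interval 1.18 to 5.48%), against 3.36% in the list, and 0 of them had more than 2. The longest of the 6 joined chr8:128234001-128236000 to chr8:128678001-128680000, 444 kb apart. The same upstream bin was joined with 2 contacts to the hub at 128306001, 72 kb away, and its neighbour at 128232001 was joined to 128414001, 182 kb away. The hub at 128306001 had another such loop to 128322001, 16 kb away. The remaining 2 were a loop of 20 kb between 128256001 and 128276001, and a loop of 40 kb within the block beyond the PVT1 5′ end, from 128870001 to 128910001. None ended in the MYC or the PVT1 promoter.

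Some loops recurred between neighbouring bins, counted whatever their number of contacts. Another loop with both ends within 4 kb, a distance chosen after the values were seen, was present for 78 of the 234 loops (33.3%, Wilson interval 27.6 to 39.6%), against 19.9% in the list. From 200 to 1000 kb the share was 21.9% (14.8 to 31.1%) in the locus and 6.84% (6.34 to 7.39%) in the list. The MYC promoter had 13 such loops of 26 (50%, interval 32.1 to 67.9%). These were the loops to the places 46 to 50 kb, 72 to 74 kb and 256 to 258 kb upstream and to those 114 to 122 kb and 290 to 294 kb downstream. Of the PVT1 loops, 6 of 9 had a neighbour (66.7%, interval 35.4 to 87.9%). The anchors of the locus were also denser and had more coverage than most of the list, and the part of this in the recurrence was not tested.

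Coverage was high at both promoters among the bins that have a value. Coverage is given only for bins listed first in a loop. The bin with the MYC 5′ end had a coverage of 129, the highest among the first bins of chromosome 8, and 45 of the 21636 first bins of the list (0.208%) had as much. Its upstream neighbour had 80. The PVT1 bin had 91, a value reached by 125 first bins. Over the 95 anchors of the locus that are listed first in a loop, the median was 24 (interquartile range 13 to 39), against 12 (8 to 18) in the rest of chromosome 8 and 12 (8 to 20) in the rest of the list. The ratio of the locus to the rest of the list was 1.62 at the lower quartile, 2.0 at the median and 1.95 at the upper quartile. Among first bins with at least 2 loops, it was 1.69 at the median. Copy number was not measured in these files, so more copies of the locus and more acetylated chromatin per copy cannot be told apart.

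The number of loops of a bin followed its coverage. Over the 95 first bins, Spearman's rho was 0.729 and Pearson's r was 0.831, as a description of bins that share libraries and depth, and rho over all first bins of the list was 0.471. The MYC bin had 12.4 loops per 100 counts of coverage and the PVT1 bin 9.89, beside 13.1 for the first bins of the locus together and 12.6 for those of the rest of the list. The 9 bins of the block 519 kb upstream had 13.4. Per count of coverage, the bin with the MYC 5′ end was thus close to the first bins of the list, while its number of loops was the highest of the locus.

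**Figure D5:**
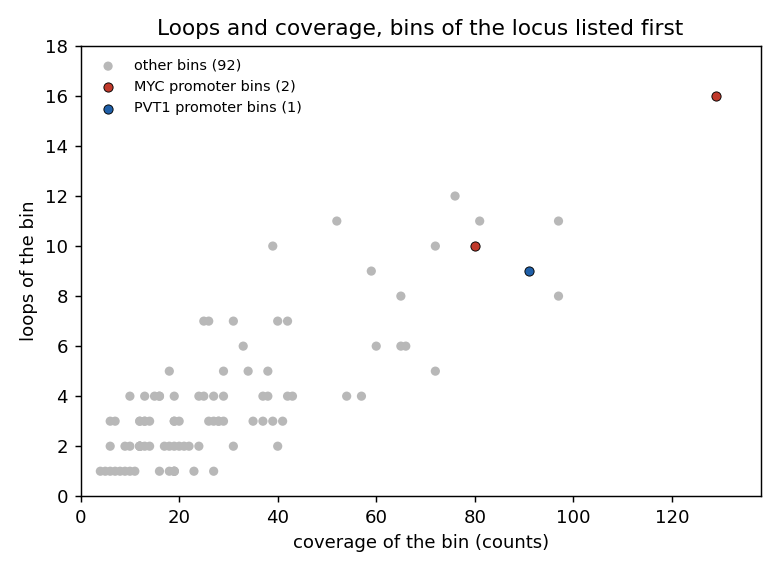
Each point is 1 of the 95 bins of the locus that are listed first in a loop, with its coverage (counts) on the horizontal axis and its loops on the vertical axis, the MYC promoter bins in red and the PVT1 promoter bin in blue. The bin with the MYC 5′ end, at 129 counts and 16 loops, lies at the far end of the trend of the other bins.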

How the data were processed

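The data were 2 H3K27ac HiChIP libraries of KYSE180, both from 1 group that received a non-targeting siRNA. HiC-Pro was used on the reads. FitHiChIP in its Peak-To-All mode gave the loops, which the methods call p63-associated without naming the peak set, and the authors removed any loop with an end that lacked H3K27ac. Versions and thresholds, and how p63 entered the calls, are not given in the sources used here, and hg19 is named in the submitters' processing notes. The authors deposited 1 list for both libraries without column names. It holds raw counts, read as contacts per loop, and a coverage signal deposited beside them, read as that of the first bin. Contacts exceeded coverage in 0 first bins. The coverage covers only listed bins, so the depth of the libraries is unknown.

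The window and the gene positions came from the definition of the locus, and members, regions and windows were chosen with earlier results of these data known. Promoters were bins within 1 kb of a 5′ end. By rule, the text names MYC, PVT1, the 10 anchors with the most loops and every loop with 2 or more contacts. Partner bins of both promoters were given as well. RefSeq (GRCh38.p14) gave gene order and the length of PVT1 only, with no position converted. Sequences of chromosome 8 are not shown. Alternatives were promoter widths, a span of at least 20 kb, at least 2 contacts, both bins in the window, shifted windows, merged anchors and other backgrounds. Counting functions were tested on simulated data. Scripts ran in Python 3.11.15 with matplotlib 3.10.9, scipy 1.17.1, pandas 2.3.3 and numpy 2.4.6.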

Additional observations from a re-analysis of the deposited data

How the results depend on the processing

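Of 32 recomputed values of 11 results, 20 stayed within their interval, or within 1.5 times for counts, and 12 moved. The largest changes came from asking for 2 or more contacts, which left 6 loops in the locus with a median span of 56 kb, 0 loops in place of 46 from upstream of MYC to beyond the PVT1 promoter (ends outside the window included), 0 loops at the MYC promoter and 0 at the PVT1 promoter, since nearly all loops rest on 1 contact. The promoter counts also depended on the width. The bin of the 5′ end alone gave MYC 16 loops. PVT1 had 26 loops within 5 kb and 23 with the whole run of touching anchors, and that run gave 1 loop between the genes. Wider promoters hold more bins by construction. Without the bins of very many contacts on chromosomes 10 and 16 and the mitochondrial sequence, 3.09% of the list had 2 or more contacts. Units with 2 or more loops were 84.7% of touching stretches and 82.4% of blocks in place of 71.2% of bins. No paired analysis was possible because the list pools its libraries and holds no second group, and leaving out a replicate could not be done either. The exact count of loops depends on a depth that the list does not give, and a count of 0 or 1 does not separate neighbouring bins.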

Other observations

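Some places of the window had no anchor. Between anchors, the longest runs without one were 108 kb at chr8:128068001-128176000 and 84 kb at chr8:128496001-128580000, both upstream of MYC. Downstream of the PVT1 5′ end, a run of 56 kb lay at chr8:129082001-129138000. The last anchor ended at 129226000, and no other followed up to the window's end at 129300000. Merged into blocks, 106 of the 561 possible pairs of blocks had a loop between them (18.9%), with a single loop in 75 of the 106 (70.8%). Besides the pairs named above, 4 loops joined the block at chr8:128412001-128418000 to that at chr8:128490001-128496000, and 4 joined chr8:128256001-128292000 to chr8:128862001-128934000.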
